A study of Homo sapiens with 6 samples.

Results

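Oxidative phosphorylation is the last stage of respiration, in which mitochondria pass electrons from NADH and succinate to oxygen and use the energy to make ATP. The complexes I to IV carry the electrons, and complexes I, III and IV pump protons across the inner membrane. Complex V, the F1Fo ATP synthase, lets the protons back in and makes ATP. The subunits come from different genomes: most are encoded in the nucleus and imported, while a few of the most hydrophobic ones are encoded on the mitochondrial chromosome itself. Complex II is the exception, with nuclear subunits alone. Mitochondrial genes are transcribed as long precursors that are cut into single transcripts, and most of these mRNAs receive a short poly(A) tail.

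The genes described here are the protein-coding subunit genes of complexes I to V, chosen by their symbols: the NDUFA, NDUFB, NDUFC, NDUFS and NDUFV genes, SDHA to SDHD, the UQCR genes, CYC1, the COX4 to COX8 genes, the ATP5 genes and the coding genes of the mitochondrial chromosome. These were 100 of the 65988 gene identifiers in the files, 87 in the nucleus and 13 on the mitochondrial chromosome. The assembly factors, the readthrough genes and ATP5IF1, which encodes an inhibitor of the synthase, were left out of this number. NDUFA4 and NDUFA4L2 carry a complex I symbol and were placed with complex IV.

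RNA was sequenced from U87MG cells, an established human glioblastoma line, that had received vehicle (the control group) or RSL3 at 2 µM, with 3 libraries in each group. RSL3 inhibits GPX4, the enzyme that reduces lipid hydroperoxides in membranes, and so starts ferroptosis. Both groups are the same line, for which the labels give no genetic change, and the comparison asks which transcripts changed under RSL3. The libraries were made from poly(A) RNA. The labels number the replicates and do not say whether these came from separate cultures, so p-values measure the spread between these libraries, which may be technical. Total counts lay between 27813462 and 43306335 per library. Of the markers fixed for a glioblastoma line, VIM, CD44, TNC and SPARC had between 2867 and 69403 normalized counts in every library, NES stood between 148 and 209.8 normalized counts, and S100B and SOX2 lay at or below 2.30. Of the markers fixed for astrocytes, oligodendrocytes, neurons, leukocytes and endothelium, AQP4, OLIG1 and CD3E had no count and PTPRC, RBFOX3, PECAM1 and CDH5 at most 9.24 normalized counts. Of the first 4, VIM, CD44 and SPARC were called lower after RSL3 (log2 fold changes -0.29, -0.39 and -0.59) and TNC higher (0.21). Of the others, SLC1A3, SNAP25 and VWF were called lower (log2 fold changes -0.56, -1.04 and -1.33) and MBP and SYT1 higher (0.71 and 0.24). Their part in the results was not tested.

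A normalized count is a read count scaled to the mean library size after the TMM adjustment of edgeR. Groups were compared with edgeR's quasi-likelihood test, p was adjusted over all 16105 genes tested, and a gene was called at an adjusted p under 0.05. Fold changes are given as RSL3 over control on the log2 scale. Of all genes tested, 25.6% were called, 12.9% higher and 12.7% lower, and their median log2 fold change was -0.0044, so the scale was centred near 0. In bulk libraries fewer cells of a type and less RNA per cell cannot be told apart.

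All 13 mitochondrial coding genes passed the filter on low counts, and all 13 were called lower in RSL3-treated cells, where 12.7% of all genes were. Their log2 fold changes ran from -0.50 for MT-CO3 to -0.30 for MT-ND6, with a median of -0.40. Relative to the control mean they fell by 18.7% to 29.4%. They belong to complexes I, III, IV and V. Every estimate lay below that of every nuclear subunit, of which the lowest was COX7B at -0.29.

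MT-CO3 (ENSG00000198938, chrM:9207-9990 of GRCh38), a core subunit of cytochrome c oxidase, had 29632, 30635 and 24124 normalized counts in the control libraries, given here and throughout in the order of replicates 1, 2 and 3. After RSL3 it had 18720, 19335 and 21474. All RSL3-treated libraries lay below all control libraries, and control replicate 3 was the lowest of its group. Its log2 fold change came to -0.50 (standard error, SE, 0.06, adjusted p = 1.91e-06 in edgeR). MT-CO1, which carries the site where oxygen is reduced, went from 65808, 71007 and 52532 to 46268, 47693 and 52484 normalized counts. Its lowest control library and its highest RSL3-treated library were nearly equal (log2 fold change -0.37, adjusted p = 2.43e-04 in edgeR). MT-CO2, the subunit that takes electrons from cytochrome c, had 28912, 29876 and 21450 normalized counts in control cells and 18967, 19871 and 20320 in RSL3-treated cells. The groups did not overlap (log2 fold change -0.44, adjusted p = 9.61e-05 in edgeR).

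The 7 mitochondrial genes of complex I encode its proton-pumping membrane arm. MT-ND4, which had the most counts of them before any adjustment for length, had 38163, 42882 and 31310 normalized counts in the controls and 25322, 26756 and 29237 after RSL3 (log2 fold change -0.47, adjusted p = 2.82e-05 in edgeR). MT-ND1, at the quinone-binding end of the arm, had 22601, 24871 and 18679 normalized counts in the controls and 15716, 16692 and 17611 after RSL3 (log2 fold change -0.40). Both were lower in each RSL3-treated library than in any control library, as were MT-ND4L (log2 fold change -0.45) and MT-ND5 (-0.38). In the remaining MT-ND2, MT-ND3 and MT-ND6 the groups overlapped, each time through control replicate 3. MT-ND3 had 12318, 11795 and 6849 normalized counts in the controls and 8153, 8444 and 8032 after RSL3. Control replicate 3 was thus the lowest library of all 6, and the call of MT-ND3 was the weakest of the 13 (log2 fold change -0.33, SE 0.12, adjusted p = 0.0499 in edgeR). MT-ND2 had 20178, 21297 and 13752 against 13791, 13902 and 14266 normalized counts, and control replicate 3 again fell below the RSL3-treated ones. MT-ND6, the only one of the 13 that is encoded on the opposite strand, had the smallest change, from 5160, 5618 and 4212 to 3707, 4105 and 4344 normalized counts (log2 fold change -0.30, adjusted p = 0.00262 in edgeR). The counting took no account of strand, so these counts can hold reads from either strand, and their parts were not told apart.

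MT-CYB, cytochrome b and the one mitochondrial gene of complex III, had 12862, 13746 and 10424 normalized counts in control cells and 8963, 9398 and 9742 in RSL3-treated cells (log2 fold change -0.40, adjusted p = 5.07e-05 in edgeR). MT-ATP6, which forms the proton channel of the ATP synthase beside the c ring, went from 27294, 30959 and 23018 to 18378, 19268 and 21080, and MT-ATP8, a small membrane subunit, from 5520, 5755 and 4457 to 3420, 3596 and 4214. In all 3 genes the groups did not overlap, where 19.3% of all genes tested were separated with RSL3 lower. The log2 fold changes of MT-ATP6 and MT-ATP8 were -0.47 and -0.48. MT-ATP8 and MT-ATP6 share 46 bases of the mitochondrial chromosome and MT-ND4L and MT-ND4 share 7, so a read there lies on both genes of a pair. The reported counting options do not say how a read on these shared bases was assigned, so its part in the counts was not determined. These bases are shown because 22.2% of MT-ATP8 lies in them; capitals mark the start codon of the second gene, on the plus strand of GRCh38.
MT-ATP8 and MT-ATP6, chrM:8527-8572: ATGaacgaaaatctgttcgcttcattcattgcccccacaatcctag
MT-ND4L and MT-ND4, chrM:10760-10766: ATGctaa

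**Figure D1:**
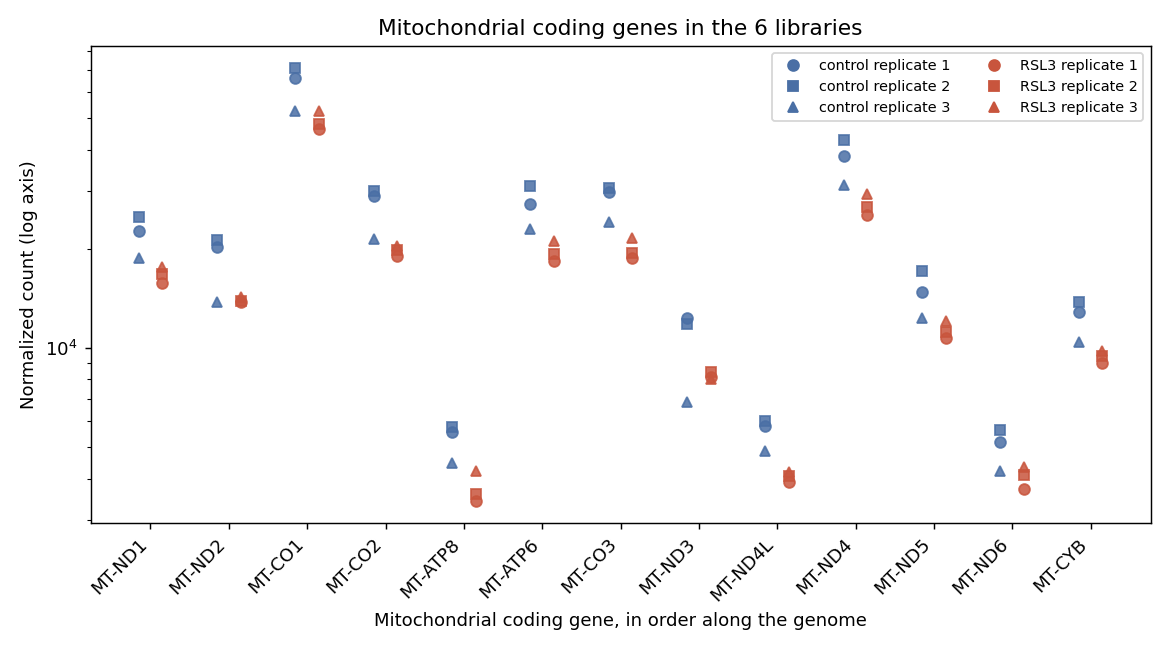
Normalized count, on a log axis, of each mitochondrial coding gene in the order of the chromosome, with 1 point per library (blue, control; red, RSL3; circle, square and triangle for replicates 1, 2 and 3). The RSL3 points lie below the circle and square of the control in all 13 genes, while the control triangle lies nearer to them and reaches them in MT-ND2, MT-ND3 and MT-ND6.

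Control replicate 3 stood apart from the other controls. It was the lowest control library in all 13 genes, at 0.568 to 0.827 times the mean of control replicates 1 and 2. All RSL3-treated libraries lay below control replicates 1 and 2 in all 13 genes, and below control replicate 3 in 10. Over all genes tested, 19.3% had every RSL3-treated library below every control library. The RSL3-treated libraries averaged 0.658 to 0.752 times the mean of control replicates 1 and 2, and 0.823 to 1.20 times control replicate 3. Without control replicate 3, all 13 genes were called lower by the same test and the log2 fold changes ran from -0.60 to -0.40. Without control replicate 1 or 2 they ran from -0.46 to -0.18 and from -0.44 to -0.21, with 12 genes called each time. The size of the difference therefore depends on which control libraries enter. The call of MT-ND3 was lost in 5 of the 6 fits without 1 library, all but that without control replicate 3 (adjusted p between 0.0918 and 0.362 in edgeR), and no other of the 13 genes lost its call in these fits. MT-ND3 was also not called with GC content or length offsets or with a minimum of 10 counts in every library.

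The share of all counts on the 13 genes was 0.849%, 0.911% and 0.674% in control replicates 1, 2 and 3, and 0.572%, 0.597% and 0.642% in the RSL3-treated libraries. The groups did not overlap, and 19.3% of all genes tested showed that separation with RSL3 lower. The mean went from 0.811% ± 0.123 (SD, n = 3) to 0.603% ± 0.0353 (SD, n = 3). For the 87 nuclear subunit genes together the share was 0.794%, 0.759% and 0.76% in the controls and 0.722%, 0.708% and 0.709% after RSL3. The mean share after RSL3 was 0.925 times that of the controls, against 0.744 times for the mitochondrial genes. Mitochondrial over nuclear subunit counts gave ratios of 1.07, 1.20 and 0.887 in the controls and 0.792, 0.844 and 0.905 after RSL3. These ratios overlapped, again through control replicate 3, which stood at 0.887.

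The mitochondrial ribosomal RNAs, which come from the same chromosome, gave a further reference. MT-RNR2, the large one, had 103840, 110181 and 75693 normalized counts in the controls and 84100, 85537 and 84302 after RSL3, with overlap (log2 fold change -0.19, adjusted p = 0.0746 in edgeR). MT-RNR1 had 7989, 8480 and 5926 and 6681, 6229 and 7035 (log2 fold change -0.17, adjusted p = 0.137 in edgeR). Neither was called with all libraries, and both were called lower without control replicate 3 (log2 fold changes -0.34 and -0.30). The ratio of coding to ribosomal counts in the mitochondrial genome was 2.58, 2.63 and 2.79 in the controls and 2.16, 2.23 and 2.40 after RSL3. Here control replicate 3 was the highest library and the groups did not overlap, so coding and ribosomal counts changed unequally within the libraries. Selection of poly(A) RNA sets how much ribosomal RNA enters, so this ratio does not give the molar amounts.

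**Figure D2:**
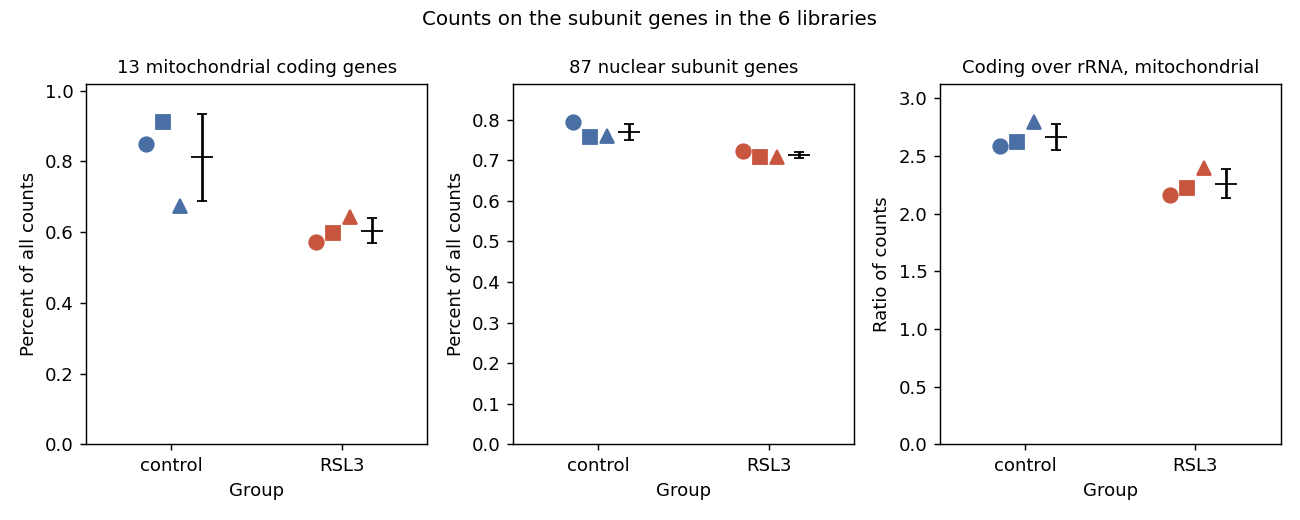
Percent of all counts on the 13 mitochondrial coding genes (left) and on the 87 nuclear subunit genes (middle), and the ratio of mitochondrial coding to mitochondrial ribosomal counts (right), per library, with the group mean ± SD (n = 3) in black. Each panel starts at 0; in each, the RSL3 points lie on 1 side of the control points, with means of 0.811% and 0.603% on the left.

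Reads of the mitochondrial chromosome can also be assigned to its nuclear copies, pseudogenes with near-identical sequence. Of these, 7 passed the filter, and 4 were called lower, where 12.7% of all genes were. MTCO1P12 and MTCO2P12 had log2 fold changes of 0.49 and 0.59 without a call. MTATP6P1, the copy with the most counts, had 4040, 4417 and 3546 normalized counts in the controls and 2524, 2606 and 2982 after RSL3 (log2 fold change -0.56, adjusted p = 6.87e-07 in edgeR). The drop was of the same direction as in MT-ATP6, and how reads were shared between the copies was not tested.

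Levels of different genes are compared here per kilobase of the canonical transcript, in control cells. The mitochondrial coding genes had a median of 25334 normalized counts per kilobase, from 8112 in MT-ND5 to 40931 in MT-CO1. The 78 nuclear subunits that passed the filter had a median of 2588, and the highest was COX4I1 with 14831. Their canonical transcripts had a median of 760.5 bases and reached 11660. Which transcripts were present was not determined, so these levels depend on the length chosen. The lowest tested was NDUFA3, at 8.13 per kilobase. The remaining 9 nuclear genes, NDUFV2, NDUFA6, NDUFA7, COX4I2, COX6A2, COX6B2, COX7A1, COX7B2 and ATP5MGL, had at most 12 counts in any library and were not tested. NDUFA3, NDUFV2, NDUFA6 and NDUFA7 are regular complex I subunits, so their low counts describe only the reads assigned to these identifiers.

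Among the 78 nuclear subunits tested, 29 were called lower and 1 higher, and 48 were not called. That is 37.2% lower and 1.28% higher, against 12.7% and 12.9% of all genes. The 78 genes had more counts than all genes tested, with median control means of 2528 against 568 normalized counts. Their canonical transcripts were shorter, with medians of 760.5 against 2888 bases. How much of the difference in shares this accounts for was not tested. Of the 78 estimates, 65 were below 0, and the median log2 fold change was -0.086, beside -0.0044 for all genes tested. In 36 genes all RSL3-treated libraries lay below all control libraries, and in 1 above, where 19.3% of all genes tested were separated in each direction. The number called lower was 19 without control replicate 1, 17 without RSL3 replicate 2, and 16 in DESeq2 with 2 surrogate variables, which stand for unlabelled differences between libraries. Relative to the control mean, the genes called lower fell by 5.79% to 18.1%. Among the members whose exons overlap no other gene, 15 of 36 were called lower and 1 higher.

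By complex, 10 of 34 tested nuclear subunits were called lower in complex I, 1 of 4 in complex II and 4 of 10 in complex III. In complex IV 6 of 13 and in complex V 8 of 17 were called lower. From complex I to V that is 29.4%, 25%, 40%, 46.2% and 47.1%, against 12.7% of all genes. The share in complex II rests on 1 gene. Median log2 fold changes were -0.068, -0.063, -0.095, -0.087 and -0.12 in the same order. Without control replicate 1 the medians of complexes II and IV were -0.0070 and -0.057, and without RSL3 replicate 2 that of complex I was -0.041. With GC content offsets complexes I and II had medians of -0.042 and -0.036. No difference between complexes was tested.

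**Figure D3:**
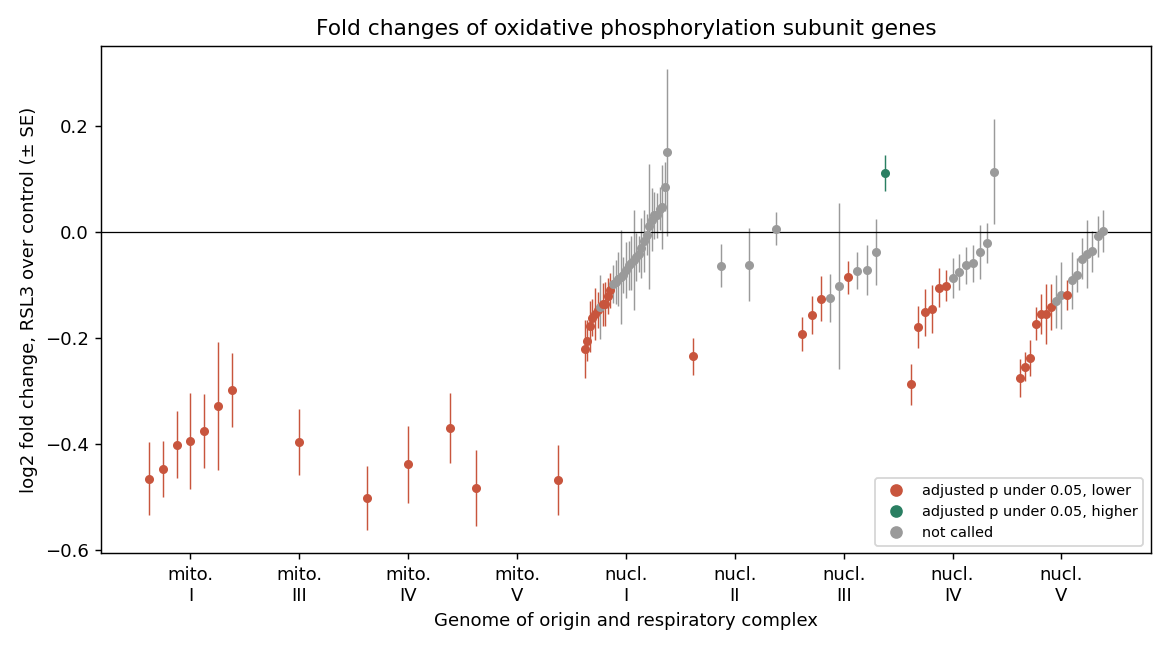
The log2 fold change of each subunit gene tested, RSL3 over control, ± its standard error, by genome of origin and complex (red, called lower; green, called higher; grey, not called). NDUFA3, whose estimate rests on at most 18 counts in any library, is not drawn; the mitochondrial genes lie between -0.50 and -0.30, below the nuclear ones, and UQCRC1 is the only gene called higher.

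In complex I, which oxidises NADH, the nuclear core subunits carry the flavin and the iron-sulfur clusters. Of the 6 core subunits tested, 4 were called lower, where 12.7% of all genes were. Of the 28 supernumerary ones, which surround the core, 6 were called lower, and the difference between these lists was not tested. NDUFS8 (ENSG00000110717, chr11:68030617-68036644), an iron-sulfur subunit near the quinone site, had 3876, 3607 and 3675 normalized counts in the controls and 3335, 3098 and 3255 after RSL3. All RSL3-treated libraries were lower (log2 fold change -0.21, SE 0.04, adjusted p = 3.55e-04 in edgeR). NDUFV1, which binds NADH and the flavin, went from 4986, 4715 and 5007 to 4518, 4471 and 4300 (log2 fold change -0.15, adjusted p = 0.00303 in edgeR). The groups did not overlap in NDUFV1, which shares exon bases with other genes. NDUFA3, a small membrane subunit, had the largest positive estimate of all members, 0.77, with 7, 9 and 7 raw counts in the controls and 10, 8 and 18 after RSL3. It was not called (adjusted p = 0.289 in edgeR), and its groups overlapped.

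Complex II, succinate dehydrogenase, also serves the citric acid cycle. SDHA (ENSG00000073578, chr5:218303-257082), its flavoprotein, had 3828, 3687 and 3803 normalized counts in the controls and 3225, 3124 and 3272 in RSL3-treated cells. The groups were well apart (log2 fold change -0.24, SE 0.03, adjusted p = 2.86e-05 in edgeR). SDHA shares 21.7% of its exon bases with other genes, and the counting took no account of strand. SDHB, SDHC and SDHD were not called.

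Complex III passes electrons from ubiquinol to cytochrome c, and its large core proteins UQCRC1 and UQCRC2 moved in opposite directions. UQCRC2 (ENSG00000140740, chr16:21953288-21983660) had 6547, 6437 and 6392 normalized counts in the controls and 5793, 5697 and 5475 after RSL3 (log2 fold change -0.19, SE 0.03, adjusted p = 1.12e-04 in edgeR). UQCRC1 (ENSG00000010256, chr3:48599002-48610976) had 9826, 9501 and 9360 in the controls and 10658, 10477 and 9843 after RSL3 (log2 fold change 0.11, SE 0.03, adjusted p = 0.0179 in edgeR). For UQCRC1 the lowest RSL3-treated library, replicate 3, lay just above the highest control library, and the call was lost without control replicate 3, RSL3 replicate 1 or RSL3 replicate 2 (adjusted p between 0.0577 and 0.121 in edgeR). CYC1, cytochrome c1, went from 4349, 4232 and 4044 to 3747, 3872 and 3709 (log2 fold change -0.16, adjusted p = 0.00235 in edgeR). UQCR10, a small subunit, was called lower with a log2 fold change of -0.13 (adjusted p = 0.03 in edgeR), a call that 4 of the 6 fits without 1 library lost.

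In complex IV, cytochrome c oxidase, the largest drop of any nuclear subunit was in COX7B (ENSG00000131174, chrX:77899440-77907376), a small membrane subunit. It had 2972, 2737 and 2908 normalized counts in the controls and 2346, 2355 and 2367 after RSL3. The RSL3-treated libraries lay close together and well below the controls (log2 fold change -0.29, SE 0.04, adjusted p = 9.19e-06 in edgeR). COX6B1, on the side facing the intermembrane space, went from 4040, 3709 and 3616 to 3315, 3380 and 3352 (log2 fold change -0.18, adjusted p = 0.00176 in edgeR). COX4I1, the most abundant nuclear subunit per kilobase, went from 11523, 11243 and 11183 to 10647, 10421 and 10569 (log2 fold change -0.10, adjusted p = 0.0116 in edgeR), and its call was lost without RSL3 replicate 2 (adjusted p = 0.076 in edgeR).

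Several complex IV subunits exist as isoforms with different tissue use. COX4I1, COX6A1 and COX6B1, the widely used forms, were all called lower, and their partners COX4I2, COX6A2 and COX6B2 had at most 1 count in any library. COX6A1 went from 2034, 1868 and 1879 to 1772, 1754 and 1686 normalized counts (log2 fold change -0.15, adjusted p = 0.015 in edgeR), and its call was lost without control replicate 1 or RSL3 replicate 3. COX7A2 had 2744, 2545 and 2310 and 2576, 2378 and 2458 normalized counts in the groups, which overlapped (log2 fold change -0.04, adjusted p = 0.648 in edgeR). COX7A2L, which takes part in joining complexes III and IV, had a log2 fold change of -0.06 and was not called either (adjusted p = 0.212 in edgeR). NDUFA4 and NDUFA4L2 were not called, with log2 fold changes of -0.08 and 0.11. The share of NDUFA4L2 in the counts of the pair was 6.09%, 6.45% and 6.12% in the controls and 7.16%, 7.65% and 6.28% after RSL3, with overlap.

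In complex V, 4 of the 5 subunits of the F1 head were called lower, where 12.7% of all genes were: ATP5F1A, ATP5F1B, ATP5F1C and ATP5F1D. ATP5F1B (ENSG00000110955, chr12:56638175-56645984), the catalytic beta subunit, had the smallest p of all nuclear members. It had 20894, 20334 and 20173 normalized counts in the controls and 17251, 17283 and 16933 after RSL3 (log2 fold change -0.25, SE 0.03, adjusted p = 5.32e-07 in edgeR). ATP5F1C (ENSG00000165629, chr10:7788147-7807815), the rotating gamma subunit, went from 4592, 4429 and 4397 to 3875, 3798 and 3714 (log2 fold change -0.24, adjusted p = 1.78e-05 in edgeR). In both genes each group was tight and the groups lay far apart compared with their spread.

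The c ring, the rotor in the membrane, is built from 1 mature protein that the genes ATP5MC1, ATP5MC2 and ATP5MC3 all encode. ATP5MC3 (ENSG00000154518, chr2:175176258-175181710) went from 4174, 4102 and 4150 to 3417, 3280 and 3560 normalized counts (log2 fold change -0.28, SE 0.04, adjusted p = 5.44e-06 in edgeR). ATP5MC1 had 1523, 1387 and 1364 and 1301, 1312 and 1297, and was not called (log2 fold change -0.13, adjusted p = 0.0606 in edgeR). ATP5MC2 had 5466, 5168 and 5278 and 5025, 5044 and 4974, and was not called either (log2 fold change -0.08, adjusted p = 0.0702 in edgeR). The groups did not overlap in any of the 3 genes, where 19.3% of all genes tested were separated with RSL3 lower. ATP5MC3 supplied 37.4%, 38.5% and 38.5% of their summed counts in the controls and 35.1%, 34.0% and 36.2% after RSL3, again without overlap.

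**Figure D4:**
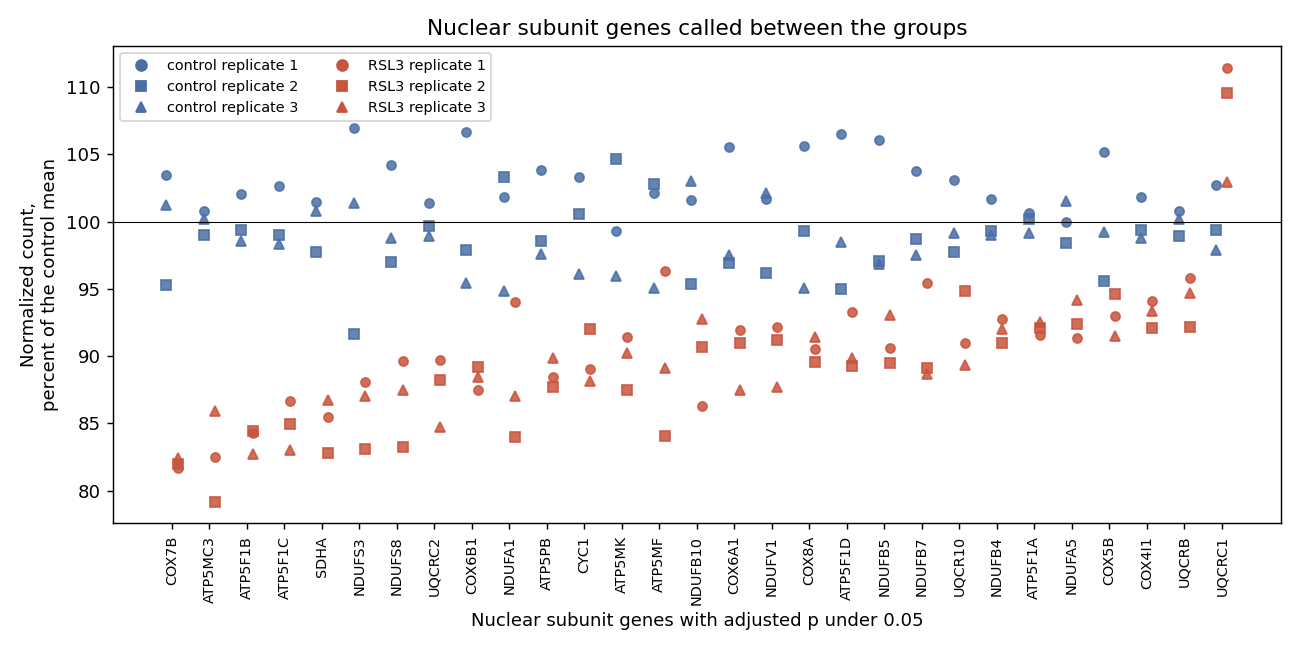
Normalized count as a percent of the control mean for 29 of the 30 nuclear subunit genes called, ordered by their fold change, with 1 point per library (blue, control; red, RSL3; symbols for replicates). COX7B, ATP5MC3 and ATP5F1B lie lowest, ATP5MF is the only gene called lower with overlapping groups, and UQCRC1 is the only one above the controls.

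The nuclear members called lower had more counts than those not called. Their median control mean was 3788 normalized counts against 1719, and across the 78 genes Spearman's rho between the control mean and the log2 fold change was -0.35, a description over genes that share libraries. The control values also enter the fold change, so the compared values are not independent, and the mean over all libraries was not used. A gene with more counts is also measured more precisely, and how much of the difference in calls this accounts for was not tested. Median GC content was 48.3% and 46.9% in the same order.

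Promoter sequences of RefSeq (GRCh38.p14) matched 68 of the 87 nuclear members, as windows of 300 bases around the start of the gene. Respiratory genes are textbook targets of the factors NRF1 and GABP, the latter an ETS factor. On either strand, the NRF1 core GCGCATGC stood in 13 of the 68 promoters, 19.1%, against 5.42% of the promoters of all genes tested. The ETS core CCGGAAG stood in 29.4% against 18.6%, the site AAGGTCA of the oestrogen-related receptors in 13.2% against 2.44%, and the CCAAT box in 35.3% against 36.4%. Of the members called lower, 21 had a promoter entry and 4 of these held the NRF1 core. They are shown to let the windows be compared, and capitals mark the NRF1 core and the ETS core on either strand. The reverse complement of the NRF1 core is GCATGCGC. In ATP5F1C and NDUFB4 the core and its reverse complement overlap in GCGCATGCGC, so that site matches on both strands.
ATP5F1C, chr10:7787927-7788226, plus strand: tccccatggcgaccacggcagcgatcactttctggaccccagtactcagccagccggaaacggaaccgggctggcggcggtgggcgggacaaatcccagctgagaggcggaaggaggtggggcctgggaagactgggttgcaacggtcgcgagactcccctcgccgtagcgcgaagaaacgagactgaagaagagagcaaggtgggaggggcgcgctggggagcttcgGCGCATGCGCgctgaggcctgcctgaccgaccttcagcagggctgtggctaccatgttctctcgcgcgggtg
NDUFB4, chr3:120596086-120596385, plus strand: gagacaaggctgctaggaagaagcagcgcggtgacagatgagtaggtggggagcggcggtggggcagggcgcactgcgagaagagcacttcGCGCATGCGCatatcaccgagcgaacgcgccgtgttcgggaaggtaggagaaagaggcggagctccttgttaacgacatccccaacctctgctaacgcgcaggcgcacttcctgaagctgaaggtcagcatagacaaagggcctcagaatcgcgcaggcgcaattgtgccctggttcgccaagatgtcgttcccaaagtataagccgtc
COX6A1, chr12:120437863-120438162, plus strand: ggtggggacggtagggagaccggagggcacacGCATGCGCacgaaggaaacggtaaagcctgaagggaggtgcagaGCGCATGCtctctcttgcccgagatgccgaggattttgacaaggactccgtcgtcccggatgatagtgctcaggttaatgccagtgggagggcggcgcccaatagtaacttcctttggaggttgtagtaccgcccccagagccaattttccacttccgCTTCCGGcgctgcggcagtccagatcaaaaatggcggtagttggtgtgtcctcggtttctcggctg
COX5B, chr2:97645812-97646111, plus strand: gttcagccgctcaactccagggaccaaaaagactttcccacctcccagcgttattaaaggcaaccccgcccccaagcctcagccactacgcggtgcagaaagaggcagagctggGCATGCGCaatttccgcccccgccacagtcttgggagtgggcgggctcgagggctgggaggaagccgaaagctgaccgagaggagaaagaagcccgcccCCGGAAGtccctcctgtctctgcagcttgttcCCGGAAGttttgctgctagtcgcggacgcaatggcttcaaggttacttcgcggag
The log2 fold changes of these 4 genes were -0.24, -0.12, -0.15 and -0.11, and the groups did not overlap in any of them. They were picked from the members called lower, and 28 of those 29 had groups that did not overlap. The separation thus came with the choice and says nothing about the NRF1 core. With RSL3 lower, 19.3% of all genes tested were separated.

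Other nuclear genes make, mature and degrade mitochondrial RNA. Of 31 tested, 7 were called higher and 2 lower, which is 22.6% and 6.45%, against 12.9% and 12.7% of all genes. PNPT1 (ENSG00000138035), polynucleotide phosphorylase, an RNA-degrading enzyme of mitochondria, had 1450, 1373 and 1350 normalized counts in the controls and 1626, 1700 and 1601 after RSL3 (log2 fold change 0.24, adjusted p = 5.94e-04 in edgeR). ELAC2, which cuts the 3' ends of tRNAs out of the precursors, went from 1377, 1365 and 1396 to 1274, 1197 and 1212 (log2 fold change -0.17, adjusted p = 0.0111 in edgeR), and its call was lost without RSL3 replicate 2 (adjusted p = 0.064 in edgeR). The mitochondrial RNA polymerase POLRMT and the factor TFAM, named here after their values were seen, had log2 fold changes of 0.02 and 0.09 and were not called.

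Among 9 transcriptional regulators of mitochondrial biogenesis, 2 were called lower, which is 22.2%, against 12.7% of all genes. PPARGC1A (ENSG00000109819, chr4:23755041-23904089), the coactivator PGC-1 alpha, had 685, 727 and 719 normalized counts in the controls and 562, 540.0 and 494 after RSL3. No RSL3-treated library reached the controls (log2 fold change -0.42, SE 0.07, adjusted p = 1.60e-04 in edgeR). The other was GABPA, the DNA-binding subunit of GABP, with a log2 fold change of -0.25. NRF1, named after its values were seen, was not called (log2 fold change -0.02).

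Assembly factors help to build the complexes and are not part of them. Of 55 tested, ATP5IF1 counted among them, 2 were called lower and 5 higher, which is 3.64% and 9.09%, against 12.7% and 12.9% of all genes. NDUFAF2, of complex I, had 1238, 1134 and 1173 normalized counts in the controls and 1449, 1493 and 1323 after RSL3 (log2 fold change 0.26, adjusted p = 9.26e-04 in edgeR). TACO1, which aids translation of MT-CO1, went from 1458, 1471 and 1280 to 1634, 1541 and 1685 (log2 fold change 0.21, adjusted p = 0.00639 in edgeR), and shares 40.9% of its exon bases with other genes. TTC19 of complex III and ATPAF1 of complex V were called higher (log2 fold changes 0.13 and 0.13), COA3 of complex IV and the inhibitor ATP5IF1 lower (-0.13 and -0.15). The calls of TTC19, COA3 and ATPAF1 were lost in 5, 5 and 4 of the 6 fits without 1 library, and that of ATP5IF1 without RSL3 replicate 2 (adjusted p = 0.0503 in edgeR).

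Among the enzymes that feed the chain, 5 of 14 citric acid cycle genes were called lower and 1 higher, which is 35.7% and 7.14%, against 12.7% and 12.9% of all genes. IDH3G, a regulatory subunit of the NAD-dependent isocitrate dehydrogenase, went from 1897, 1809 and 1840 to 1475, 1522 and 1511 normalized counts (log2 fold change -0.30, adjusted p = 1.78e-05 in edgeR). IDH3A, the catalytic subunit of the same enzyme, went the other way, from 1351, 1336 and 1415 to 1510, 1594 and 1548 (log2 fold change 0.18, adjusted p = 0.00555 in edgeR), and shares 38.8% of its exon bases with other genes. Of 7 tested genes that bring electrons to ubiquinone or cytochrome c by other routes, 4 were called lower, which is 57.1%, against 12.7% of all genes. ETFDH, which delivers electrons from fatty acid oxidation, went from 1256, 1192 and 1301 to 1072, 1052 and 1031 (log2 fold change -0.25, adjusted p = 9.40e-04 in edgeR).

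The calls on the mitochondrial genes also depended on the test. DESeq2 called 10 of the 13 lower without surrogate variables, 9 with 1 of them in the model and 8 with 2, while the log2 fold changes stayed between -0.50 and -0.29 in these fits. MT-ND2, MT-ND3 and MT-ND6 lost their call in all 3, and these are the genes whose groups overlapped.

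**Figure D5:**
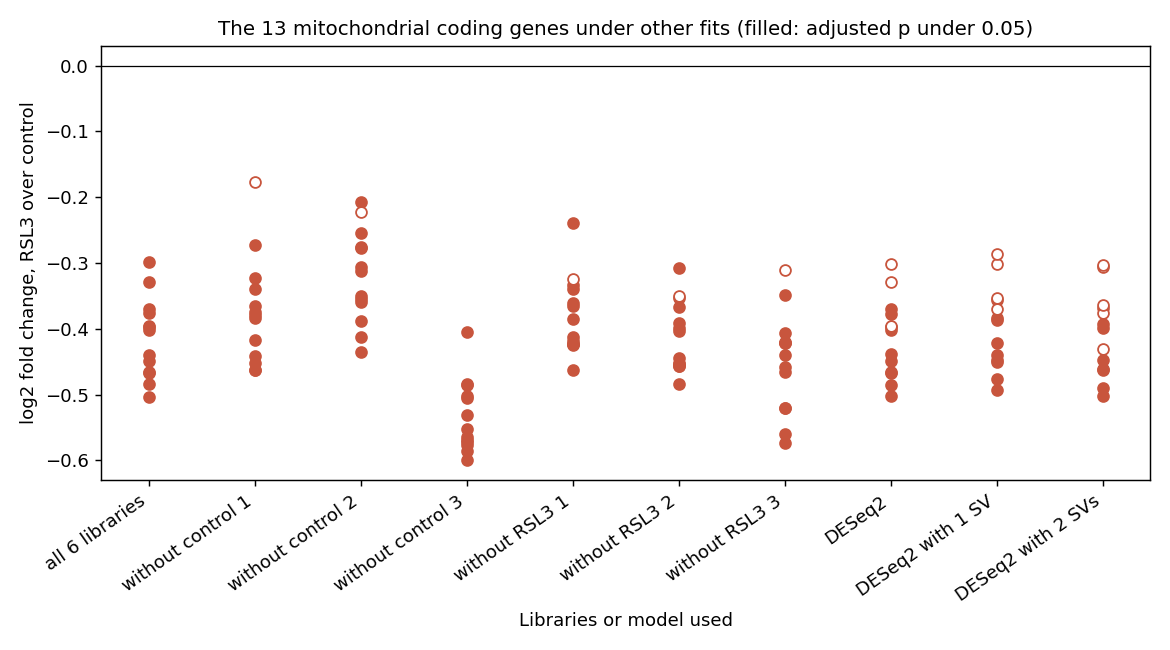
The log2 fold changes of the 13 mitochondrial coding genes with all 6 libraries, without each library in turn, and with DESeq2 with 0, 1 or 2 surrogate variables (SV); filled points have an adjusted p under 0.05. All points lie below 0, the lowest without control replicate 3 (-0.60) and the highest without control replicate 1 (-0.18, MT-ND3).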

How the data were processed

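Poly(A) RNA of U87MG cells was sequenced in read pairs, 3 libraries per group. The authors used Trimmomatic 0.36 and Fastp for trimming, HISAT2 for alignment to GRCh38.p4 and HTSeq-count 0.6.1p1 to count exons per gene, without strand. The values they deposited are raw read counts per Ensembl identifier, not normalized. The annotation release is not given in the sources used here, so coordinates and exon overlaps (GENCODE v44, GRCh38) describe the counts only as far as the exons are the same. Symbols came from a table of gene names, which matched 56434 of 65988 identifiers.

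Counts were tested here in R 4.3.3 with edgeR 4.0.16 (filterByExpr with a minimum count of 10, TMM, quasi-likelihood F test, Benjamini-Hochberg adjustment over 16105 genes, threshold 0.05, no covariates). The study used DESeq2 after surrogate variable analysis, with a number of variables not given, so DESeq2 1.42.0 with sva 3.50.0 is an alternative. No test was made over the members as a list. The scripts were tested on simulated data with known changes.

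The members and lists were chosen with earlier results of these data known. Named are all mitochondrial coding genes, in each complex the 3 genes with the smallest p among those called in each direction, the extremes of the nuclear fold changes, the isoform sets, and in each other list the gene with the smallest p in each direction. Further genes named with a value are the 4 whose promoters are printed and those said to be named after their values were seen. GABPA was also named after its value was seen. Items withheld for evaluation are not reported here.

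Alternatives were other normalizations, filters and thresholds, DESeq2, surrogate variables, GC content and length offsets (loess, span 0.3), the replicate number as a block, and each library left out. Deviations from the group means correlated only weakly between libraries with the same replicate number (0.022, 0.027 and 0.074). Depth limits precision only for low counts such as NDUFA3.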

Additional observations from a re-analysis of the deposited data

How the results depend on the processing

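The median log2 fold change stayed below 0 for the mitochondrial genes (-0.55 to -0.31) and for the nuclear subunits (-0.0996 to -0.0589) in every alternative run. With 2 surrogate variables in DESeq2, an alternative chosen after seeing the data in which svaseq read all genes averaging above 1 normalized count, 1275 genes were called higher and 1241 lower, and the subunits called lower were 16 nuclear and 8 mitochondrial. The planned fit with 2 variables from the genes tested could not be fitted, because svaseq returned variables that were 1 in a single control library and 0 elsewhere. At an adjusted p under 0.01, 1348 genes were called higher and 1343 lower, with 16 nuclear subunits lower and 0 higher.

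Without each library in turn, the nuclear subunits called lower numbered 17 to 28 and those called higher 0 to 1, against 29 and 1. They numbered 19 without control replicate 1 and 17 without RSL3 replicate 2. COX7A2, which was not called in any fit, ran from -0.099 to 0.028 without each library in turn, changing sign without control replicate 1, and changed sign with the replicate block and GC content offsets (0.0049). The cause was not tested.

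The labels do not say whether the replicate numbers mark a pairing. Deviations from the group means correlated at 0.022, 0.027 and 0.074 between libraries with the same number, and at -0.051 to 0.024 in the other pairs. With the replicate block 36 nuclear and 13 mitochondrial subunits were called lower, against 29 and 13 without it. Over all genes tested the block gave 2350 higher and 2283 lower, against 2082 and 2041. RSL3 replicate 1 correlated best with control replicate 2 (0.024), so not every library went best with its own number. RSL3 replicates 2 and 3 did. Counting error limits the estimate of NDUFA3, which had at most 18 counts in any library. Why the identifiers of NDUFA3, NDUFV2, NDUFA6 and NDUFA7 hold so few counts was not tested.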
